A study of Mus musculus with 16 samples.

Results

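Open chromatin was examined around Rag1, Rag2 and Dntt, the genes of the lymphocyte-specific part of the V(D)J recombination machinery, in the ATAC-seq peak lists of 4 stages of mouse thymocyte development. Members were the peaks lying wholly within the body of 1 of these genes or 100 kb on either side of it, on the mm10 build with GENCODE M21 gene models. Rag1 and Rag2 are neighbours on chromosome 2, so their windows were joined into 1 of 224784 bp, and the Dntt window on chromosome 19 held 230251 bp. Peaks of the 4 lists sharing at least 1 bp were merged into 185978 regions, of which 111 were members, 62 in the Rag1 and Rag2 window and 49 in the Dntt window. They held 90 peaks of the DN list and 82 of the DP list, and 69 of the SP4 list and 64 of the SP8 list.

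The cells came from the thymi of 4 wild type C57BL/6J mice, 9 weeks old, with no treatment or transgene in any group. Flow cytometry sorted each thymus by surface markers into CD4 and CD8 double negative cells (DN), double positive cells (DP), CD4 single positive cells (SP4) and CD8 single positive cells (SP8), which gave 16 libraries. The authors pooled the 4 mice of a stage before peaks were called, so each stage was 1 peak list with no spread between mice, and the stages below are compared as values with no test. In ATAC-seq, the transposase Tn5 cuts open chromatin, and a peak of cuts can be lower because fewer cells of the sort are open there or because each cell is less open, and these cannot be told apart here.

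RAG1 and RAG2 form the recombinase that cuts at the recombination signals beside antigen receptor gene segments. RAG1 carries the catalytic centre and RAG2 is its essential partner, which also binds trimethylated histone H3. Dntt encodes terminal deoxynucleotidyl transferase, which adds nucleotides without a template at the cut ends and so widens receptor diversity. In the thymus, Tcrb is rearranged in DN cells and Tcra in DP cells, and Rag expression is shut off after positive selection, before the SP cells leave. Transcription of Rag1 and Rag2 in T cell precursors is known to depend on distal elements upstream of Rag2, and E proteins, RUNX, GATA3 and TCF7 are among the factors known to act in these cells.

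Rag2 (ENSMUSG00000032864.4) lies on the plus strand at chr2:101624718-101632529 and Rag1 (ENSMUSG00000061311.6) on the minus strand at chr2:101638282-101649501, so that the 2 genes face each other and each has its own start. Another gene, B230118H07Rik, runs on the minus strand over both of them, and its most upstream start lies beside that of Rag1. Dntt (ENSMUSG00000025014.13) lies on the plus strand at chr19:41029275-41059525. The 250 bases before each RefSeq start are shown first because the promoter peaks overlap them, at Rag1 over the whole sequence, at Rag2 in part and at Dntt only at the end next to the gene (GRCm38, the assembly called mm10, each read on the strand of its gene). Capitals mark E-boxes (CAGCTG or CAGGTG), RUNX letters (TGTGGT or TGCGGT), the letters of GATA factors (AGATAA) and TCF7 and LEF1 letters (CTTTGAA or CTTTGAT), on either strand.

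Rag2 promoter, chr2:101624462-101624711, plus strand: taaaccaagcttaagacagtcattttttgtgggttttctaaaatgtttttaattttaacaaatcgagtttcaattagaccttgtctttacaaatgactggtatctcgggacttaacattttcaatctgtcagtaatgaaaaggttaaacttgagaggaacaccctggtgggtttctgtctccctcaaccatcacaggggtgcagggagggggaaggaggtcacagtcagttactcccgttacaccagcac
Rag1 promoter, chr2:101649533-101649782, minus strand: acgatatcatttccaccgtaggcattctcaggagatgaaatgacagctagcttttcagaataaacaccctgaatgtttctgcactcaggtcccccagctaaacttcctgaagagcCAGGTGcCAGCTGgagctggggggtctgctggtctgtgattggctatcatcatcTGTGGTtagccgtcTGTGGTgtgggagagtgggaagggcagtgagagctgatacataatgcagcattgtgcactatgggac
Dntt promoter, chr19:41029025-41029274, plus strand: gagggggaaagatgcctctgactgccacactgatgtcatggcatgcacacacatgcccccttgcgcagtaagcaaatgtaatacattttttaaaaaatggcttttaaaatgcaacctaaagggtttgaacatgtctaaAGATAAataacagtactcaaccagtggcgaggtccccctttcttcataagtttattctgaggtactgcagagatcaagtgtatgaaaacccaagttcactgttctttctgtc

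The Rag1 promoter held an E-box of each kind next to each other and 2 RUNX matches, where 18.6% of 32851 RefSeq promoters of the same length held any RUNX match, 13.001% CAGCTG and 17.2% CAGGTG. The Rag2 promoter held none of the capitalised letters. The Dntt promoter held 1 GATA match, as did 9.99% of all promoters. A match is a run of letters and not a bound site.

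The 240 bases around the summit of the tallest peak are shown for some of the distal regions described below, all on the plus strand of GRCm38. The first 4 belong to the Rag1 and Rag2 window and the last 3 to the Dntt window, and each is named by the distance of its summit from the start of the gene.

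73.2 kb upstream of Rag2, chr2:101551418-101551657: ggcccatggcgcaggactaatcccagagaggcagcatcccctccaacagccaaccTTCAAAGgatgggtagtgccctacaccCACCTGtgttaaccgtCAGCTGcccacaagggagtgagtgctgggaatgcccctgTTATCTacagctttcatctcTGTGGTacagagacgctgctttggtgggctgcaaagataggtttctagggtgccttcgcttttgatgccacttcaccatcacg
72.2 kb upstream of Rag2, chr2:101552364-101552603: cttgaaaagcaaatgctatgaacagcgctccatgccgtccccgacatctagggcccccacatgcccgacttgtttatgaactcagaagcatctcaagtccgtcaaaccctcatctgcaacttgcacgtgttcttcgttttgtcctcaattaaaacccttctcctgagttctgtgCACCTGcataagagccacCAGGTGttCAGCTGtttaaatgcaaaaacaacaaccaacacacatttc
16.01 kb upstream of Rag2, chr2:101608592-101608831: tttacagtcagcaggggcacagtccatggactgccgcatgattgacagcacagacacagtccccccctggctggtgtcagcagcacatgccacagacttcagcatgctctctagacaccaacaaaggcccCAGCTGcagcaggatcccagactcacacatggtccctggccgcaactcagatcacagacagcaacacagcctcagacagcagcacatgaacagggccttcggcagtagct
22.7 kb upstream of Rag1, chr2:101672052-101672291: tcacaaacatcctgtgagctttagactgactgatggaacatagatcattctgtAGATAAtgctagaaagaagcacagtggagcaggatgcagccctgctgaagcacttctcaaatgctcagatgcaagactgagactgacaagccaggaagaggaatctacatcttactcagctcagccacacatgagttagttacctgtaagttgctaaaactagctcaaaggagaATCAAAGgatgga
6.91 kb upstream of Dntt, chr19:41022243-41022482: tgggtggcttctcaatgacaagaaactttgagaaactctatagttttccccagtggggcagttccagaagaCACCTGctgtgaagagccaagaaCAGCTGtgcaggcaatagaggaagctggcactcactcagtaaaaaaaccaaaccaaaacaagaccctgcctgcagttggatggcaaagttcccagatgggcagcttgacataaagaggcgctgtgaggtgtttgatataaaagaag
1.89 kb into Dntt, chr19:41031044-41031283: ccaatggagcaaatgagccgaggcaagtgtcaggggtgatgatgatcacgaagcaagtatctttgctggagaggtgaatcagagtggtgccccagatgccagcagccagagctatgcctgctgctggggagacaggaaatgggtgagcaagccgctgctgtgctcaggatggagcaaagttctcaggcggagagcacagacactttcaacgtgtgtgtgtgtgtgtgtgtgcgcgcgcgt
10.1 kb into Dntt, chr19:41039221-41039460: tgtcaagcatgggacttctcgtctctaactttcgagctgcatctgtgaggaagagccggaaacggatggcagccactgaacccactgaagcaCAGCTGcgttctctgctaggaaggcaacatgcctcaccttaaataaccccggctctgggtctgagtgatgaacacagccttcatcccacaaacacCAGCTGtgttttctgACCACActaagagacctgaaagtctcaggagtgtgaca

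The 73.2 kb sequence held 1 match to each capitalised kind. The 72.2 kb sequence held 3 E-boxes and no other capitalised match. The 22.7 kb sequence held a GATA and a TCF7/LEF1 match and no E-box, and the 1.89 kb sequence held no capitalised match.

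The height of a peak is given here as its summit pileup, the number of 100-bp fragments centred on Tn5 cuts that cover the summit, divided by the genome-wide background coverage of the same list. A height of 50 is thus a summit 50 times as covered as the genome average. The genome-wide background was 3.51 fragments per base at DN and 3.28 at DP, with 3.22 at SP4 and 3.58 at SP8, so the pooled depths differed by little. The pileup was worked back from the fold enrichment and the p-value of each peak. Fold enrichment divides the summit by a local background, the mean coverage of the surrounding 10 kb where that exceeds the genome average, and so it is lower for an equally tall peak where those 10 kb, peaks included, are more covered.

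The stage labels were checked against promoter peaks of marker genes. In the gene lists here and below, a gene's height at a stage is that of its tallest peak over any annotated start. The 4 heights of a gene can thus come from different peaks. Zbtb7b, which encodes the CD4 lineage factor ThPOK, had a promoter peak at SP4 only, and Spi1, the gene of the progenitor factor PU.1, at DN only. The Spi1 peak was 7.12 high, at percentile 12.6 of the DN list by fold enrichment. Its absence from the other lists does not show closed chromatin. Most markers told the stages apart by height or not at all, and 7 of 8 DN genes and 8 of 8 SP8 genes had a promoter peak at all 4 stages. Summed over the list, height at DN, DP, SP4 and SP8 was 395, 322, 186 and 242 for the DN genes and 455, 828, 264 and 481 for the DP genes, which include Rag1 and Rag2. It was 452, 464, 707 and 666 for the SP4 genes and 627, 769, 806 and 1160.0 for the SP8 genes, so each list was highest at its own stage. For the SP4 list this rested on Zbtb7b, which added 67.7 at SP4 and nothing elsewhere, more than the gap between 707 and 666. The SP4 and SP8 lists also share Cd3e, Klf2, S1pr1 and Ccr7. Single genes departed from the order of these sums. Il2ra of the DN list, the gene of CD25, was 33.1, 19.2, 40.7 and 47.7 high, Notch1 38.5, 56.2, 62.1 and 69.5, and Cd44 19.7, 24.4, 18.3 and 39.9. The Cd4 promoter was 27.4, 29.3, 31.4 and 28.8 high and did not separate the stages. Of 10 B cell genes, 6 had a promoter peak at DN and 5 at each other stage, and Cd79a and Ms4a1 had none at any stage. The summed height of the B cell list was 220 at DN and 183 at DP, with 126 at SP4 and 110 at SP8, higher at DN and DP than at the SP stages, as the Rag and Dntt promoter heights below were. Of 10 plasmacytoid dendritic cell genes, 7 had a promoter peak at DN and 7 at DP, with 5 at SP4 and 6 at SP8, with summed heights of 375, 367, 267 and 308, and Siglech, Cox6a2 and Klk1 had none. These lists hold Blnk and genes that thymocytes also use, and their part in the results was not tested.

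Both windows held more peaks per 100 kb than chromosomes 1 to 19 as a whole at every stage. Other gene windows can hold as many. Within the gene body and 100 kb on either side, merged regions numbered 57 at Rag1, 60 at Rag2 and 49 at Dntt. Across the V(D)J recombination genes listed below they ran from 12 at Nbn to 101 at Hmgb1. The Rag1 and Rag2 window held 21.4 peaks per 100 kb at DN and 19.1 at DP, with 18.2 at SP4 and 16.9 at SP8, which was 3.503, 4.40, 3.90 and 3.99 times the density over chromosomes 1 to 19. The Dntt window held 18.2, 16.9, 12.2 and 11.3 peaks per 100 kb, or 2.99, 3.89, 2.60 and 2.66 times that density. With the lists brought to an equal length of 104411 peaks by q-value, DN went from the highest count of the Rag1 and Rag2 window to the lowest, with 29 peaks at DN, 42 at DP and 38 at each SP stage. At Dntt the counts were then 30, 38, 27 and 26, with DN below DP. Peaks covered 5.65% of the Rag1 and Rag2 window at DN and 5.41% at DP, with 5.38% for SP4 and 4.89% for SP8, and 4.63%, 4.33%, 3.10% and 3.05% of the Dntt window. Of the 62 regions in the Rag1 and Rag2 window, 7 lay over a promoter, 3 over an exon, 34 in introns and 18 between genes, and of the 49 in the Dntt window 2, 8, 21 and 18 did.

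At the window edges the values ran on. The outermost members of the Rag1 and Rag2 window stood at most 5.30 high, while the next region outside was 31.1 high at DP on the left and 20.8 on the right. The outermost member of the Dntt window on the left was 29.9 high at DP and the next region outside 6.72.

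**Figure D1:**
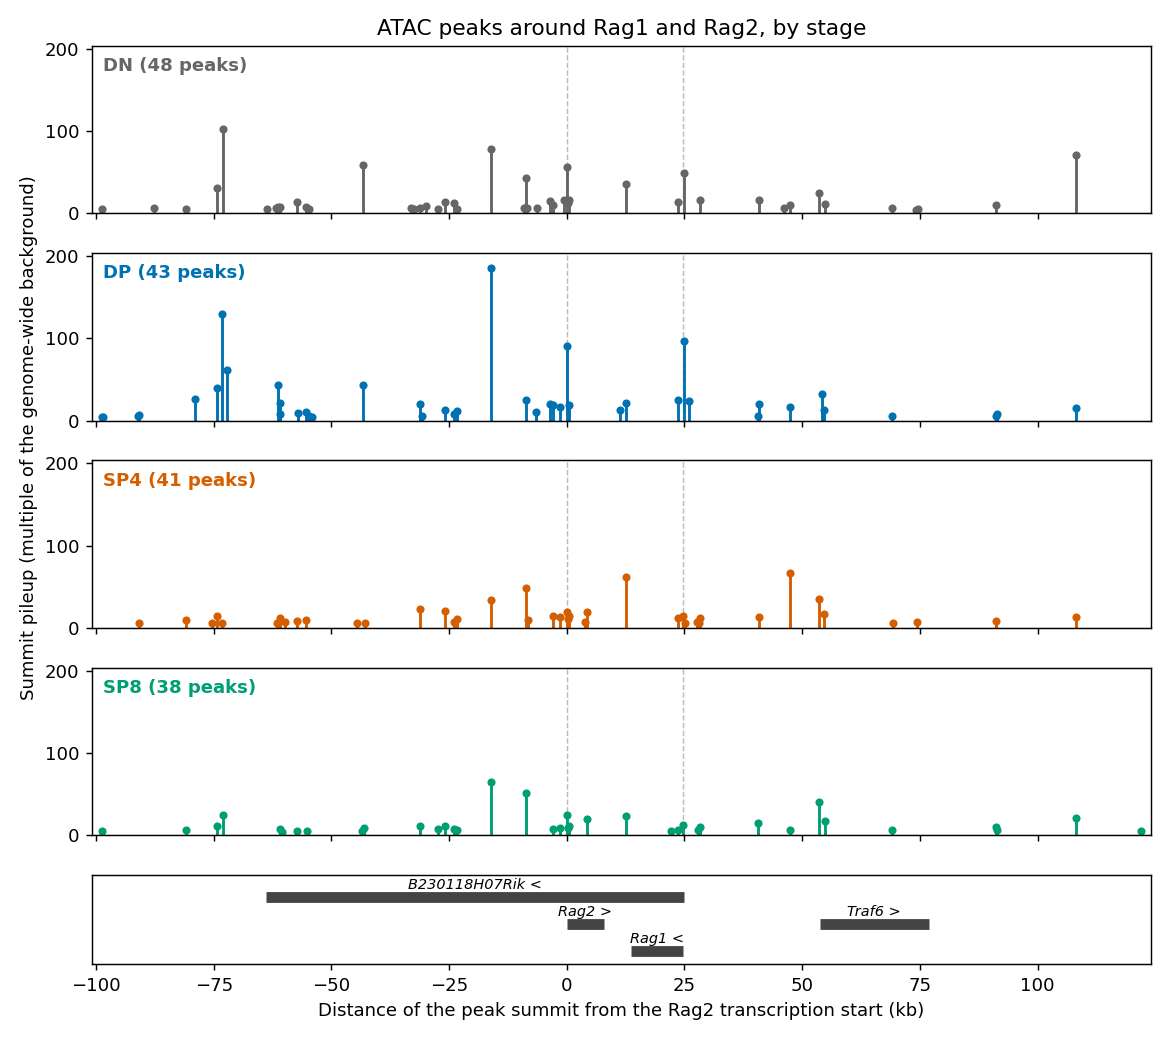
Summit height of every peak in the Rag1 and Rag2 window, as a multiple of the genome-wide background (vertical axis), against its distance from the Rag2 start in kb, with 1 panel per stage and gene bodies below (arrowheads give the strand, dashed lines the Rag2 and Rag1 starts). The tallest stems at DP stand 73.2 and 16.01 kb upstream of Rag2 and at both promoters, and all 4 are lower at SP4 and SP8.

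The Rag2 promoter region, chr2:101624573-101625030, over the first exon of Rag2, had a peak at all 4 stages. It was 55.9 high at DN and 90.1 at DP, with 19.3 at SP4 and 24.8 at SP8, from pileups of 196, 295, 62 and 89 fragments. The DP peak was 4.68 times as tall as the SP4 peak and 3.63 times as tall as the SP8 peak. Among 74794 regions called at both DP and SP4, 942 had a larger DP to SP4 ratio.

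The Rag1 promoter region, chr2:101649365-101649809, was 48.4 high at DN and 96.5 at DP, with 14.6 at SP4 and 12.0 at SP8. DP was 6.61 times SP4 and 8.04 times SP8, with 415 of 74794 and 297 of 72095 regions showing a larger ratio. The DN peak was 0.502 times as tall as the DP peak here and 0.620 times at Rag2. The region also covers the start of B230118H07Rik, and ATAC-seq does not tell which of the starts the opening belongs to.

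The Dntt promoter region, chr19:41029232-41029477, over the first exon of Dntt, was 34.8 high at DN and 27.5 at DP and was not called at SP4 or SP8. Its fold enrichment was 5.47 at DN and 2.99 at DP, which placed it at percentile 48.6 and 7.02 of all peaks of those lists, while by pileup it stood at percentile 84.1 and 74.8. The local background there was 6.12 times the genome average at DN and 9.00 times at DP. At SP4 and SP8 the nearest called peaks had a local background of 6.74 and 6.33, and the lowest SP4 and SP8 peaks called anywhere at such a background were 13.05 and 11.4 high. A Dntt promoter opening below those heights would not have been listed at the SP stages, so its absence from the lists bounds the height and does not show closed chromatin.

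With promoters of 1000 bp, the SP8 peak 0.798 kb upstream of the start counts too, and Dntt then has a promoter peak at 3 stages. With 200 bp, promoter peaks at DN and DP and at no other stage were uncommon. They were found at 388 of 20780 protein-coding genes, or 1.87%, while 56.8% had a promoter peak at all 4 stages. Both Rag genes were among the latter, and their stage difference was one of height.

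The 73.2 kb region upstream of Rag2, chr2:101551117-101551824, lies between genes and was chosen for description after its values were seen. It was 103 high at DN and 129 at DP, with 5.28 at SP4 and 24.3 at SP8, from pileups of 361, 423, 17 and 87 fragments. By pileup the SP4 peak stood only at percentile 10.0 of its list, and the rankings below leave out regions not called at SP4. The DP peak was 24.5 times as tall as the SP4 peak, and 3 of 74794 regions called at both stages had a larger ratio. DN was 19.5 times SP4, with 35 of 81942 regions above it. The SP4 peak was 0.217 times as tall as the SP8 peak, and 262 of 81295 regions had a smaller ratio. At the Rag2 and Rag1 promoters the SP4 to SP8 ratio was 0.775 and 1.22.

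The region did not stand alone. At 74.3 kb upstream a neighbour, chosen after its values were seen, was 30.2 high at DN and 39.4 at DP, with 14.6 at SP4 and 10.9 at SP8, and at 72.2 kb a region called at DP only was 61.98 high. At DN the lowest peak called at a local background like that of the 72.2 kb region was 10.8 high, at SP4 it was 3.42 and at SP8 4.19, all far below 61.98. The local background reached 9.14 at DP and 5.92 at DN by the 74.3 kb peak, the highest of the Rag1 and Rag2 window at both stages, and it was 1.21 at SP4 and 1.66 at SP8. This mean includes the peaks themselves, so a raised stretch and a few tall peaks cannot be told apart in it.

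The 16.01 kb region, chr2:101608388-101608901, in an intron of B230118H07Rik, held the tallest peak of the window. It was 78.7 high at DN and 185 at DP, with 34.2 at SP4 and 65.0 at SP8, and its fold enrichment of 37.7 at DP was at percentile 99.9 of the DP list. The DP peak was 5.41 times as tall as the SP4 peak and 2.84 times as tall as the SP8 peak. It kept the largest height of any region in the window at SP8. At SP4 the SP4-high regions described below, the region 8.66 kb upstream of Rag2 and the Traf6 promoter were taller.

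Regions 43.2 and 61.4 kb upstream of Rag2, both chosen after their values were seen, had differing DN heights. The 43.2 kb region was 59.0 high at DN and 43.7 at DP, with 6.21 at SP4 and 8.10 at SP8. The 61.4 kb region was 7.12 high at DN, 43.4 at DP and 6.21 at SP4 and was not called at SP8. Both were low at SP4, and the difference between DN and DP ran in opposite directions.

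DP-only regions made up 7 of the 62 Rag regions. The 78.9 kb region was 26.3 high at DP, and the lowest peaks called elsewhere at a like local background were 3.13 high at DN, 3.11 at SP4 and 3.07 at SP8. A region 1.21 kb upstream of Rag1, chosen after its value was seen, was 23.8 high at DP. The leading DN-only region by fold enrichment, in the B230118H07Rik intron 29.8 kb upstream of Rag2, was 8.83 high. The tallest DN-only region by pileup, chosen after its value was seen, was 16.5 high and stood 0.638 kb upstream of Rag2.

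Not all regions of the window were low at the SP stages. The region 22.7 kb upstream of Rag1, chr2:101671886-101672292, between Rag1 and Traf6, was 10.3 high at DN and 16.2 at DP, with 67.1 at SP4 and 6.42 at SP8. The SP4 peak was 10.5 times as tall as the SP8 peak, and 7 of 81295 regions called at both had a larger ratio. The region 12.5 kb downstream of the Rag2 start, between the 3' ends of Rag2 and Rag1, was 35.6, 20.8, 61.5 and 23.7 high at DN, DP, SP4 and SP8. Both were tallest at SP4, where the promoters were near their lowest.

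A further region inside Rag2, chr2:101628622-101629206, was called at SP4 and SP8 only, at 19.3 and 18.98, and covers an inner start of B230118H07Rik. The lowest peaks called at a like local background were 6.84 high at DN and 9.77 at DP. The region 8.66 kb upstream of Rag2 was 42.5, 25.04, 48.8 and 51.4 high, lowest at DP, and both regions were chosen after their values were seen. The Traf6 promoter, of the gene for a ubiquitin ligase in Toll-like receptor signalling, was 24.5, 32.1, 34.8 and 39.9 high and thus varied by less than the Rag promoters. The region 108 kb from the Rag2 start, in an intron of Prr5l, was 70.4 high at DN and 14.96, 13.7 and 21.2 at DP, SP4 and SP8, and it too was chosen after its values were seen.

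**Figure D2:**
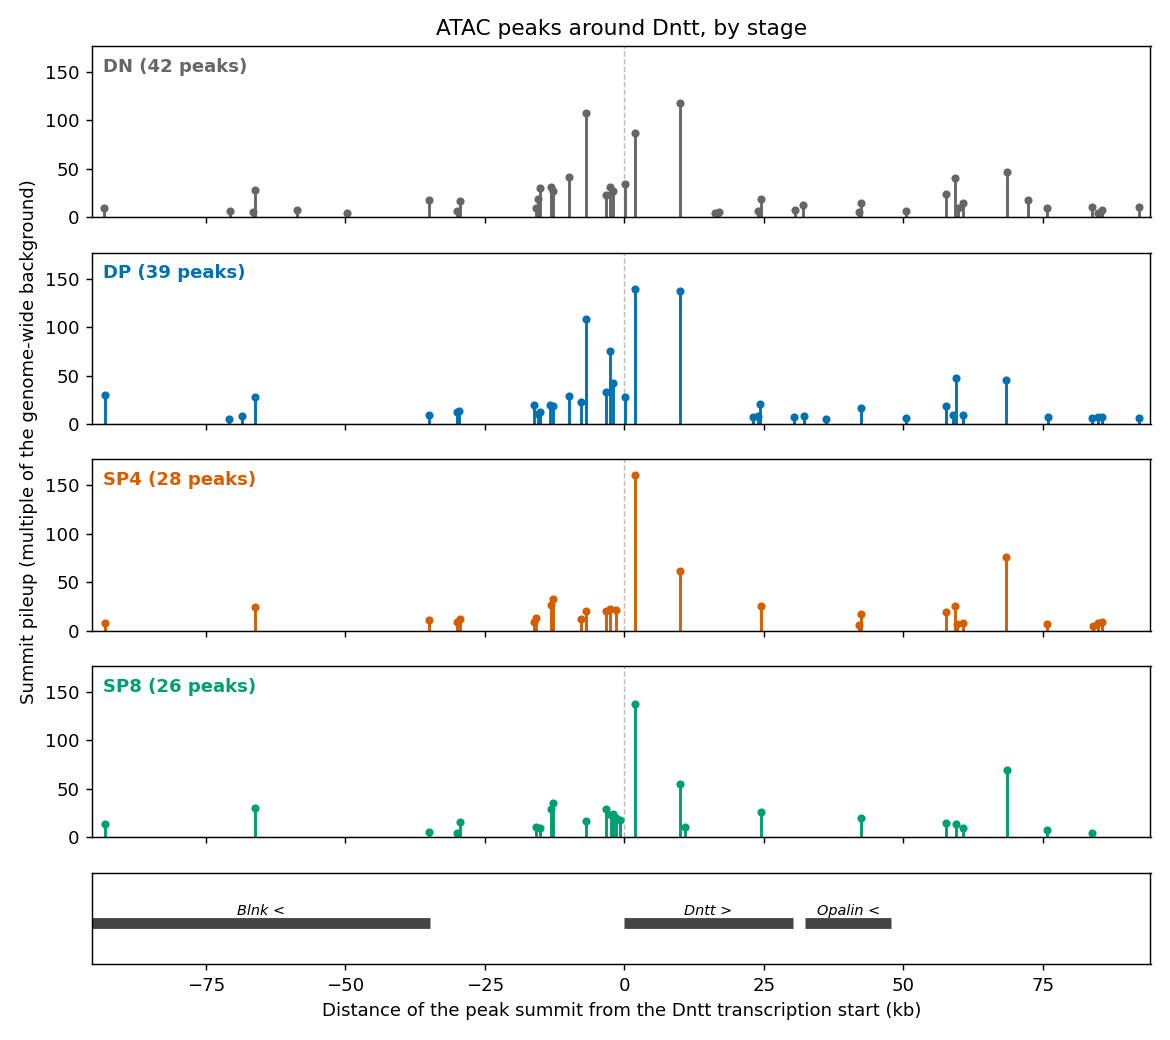
Summit height of every peak in the Dntt window, as a multiple of the genome-wide background, against its distance from the Dntt start in kb, with 1 panel per stage and the bodies of Blnk, Dntt and Opalin below. The stem 6.91 kb upstream is tall at DN and DP only, while the stem 1.89 kb into the gene is at least 87.2 at every stage.

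The Dntt window divided into regions that fell away at the SP stages and regions that did not. The region 6.91 kb upstream of the start, chr19:41022200-41022616, chosen after its values were seen, was 107 high at DN and 108 at DP, with 19.9 at SP4 and 17.0 at SP8. DP was 5.42 times SP4 and 6.33 times SP8, with 664 of 74794 and 568 of 72095 regions above those ratios. The region 9.93 kb upstream, also chosen so, was 41.3 high at DN and 28.4 at DP and was not called at either SP stage, where the lowest peaks at a like local background were 5.90 and 6.14 high. The region 2.53 kb upstream, chosen after its values were seen, was 30.8, 74.8, 22.1 and 23.5 high.

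The first intron of Dntt held the tallest peak of the window, 1.89 kb from the start at chr19:41030896-41031406. It was 87.2 high at DN and 139 at DP, with 161 at SP4 and 137 at SP8, so the SP stages were level with or above DP there, 1.89 kb from a promoter with no listed SP peak. The next region, chr19:41038828-41039571, with its summit 10.1 kb into the gene, overlapped a coding exon and was 118, 137, 61.5 and 55.3 high. DP was 2.23 times SP4 and 2.49 times SP8 at that exon region. In Tll2, a gene of the tolloid-like metalloproteases, an exon region 68.5 kb from the Dntt start was 46.7, 45.2, 76.1 and 69.5 high.

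Peaks listed only at the SP stages near the Dntt start need the local background beside them. A region 1.48 kb upstream was 21.1 high at SP4 and 19.8 at SP8 and was not called at DN or DP. The lowest peaks called at a like local background were 15.7 high at DN and 20.5 at DP, because the background was 9.12 and 11.8 times the genome average there. A region 0.798 kb upstream was 18.4 high at SP8 only, against 10.8 at DN, 15.6 at DP and 13.05 at SP4 as the lowest heights called. Both were chosen after their values were seen. Peaks of the same height would have been at or near the limit of the DP list.

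Among regions of the Dntt window called at a single stage or at DN and DP alone, the 3 with the highest fold enrichment percentile were lower than the promoter and the 9.93 kb region, which are in the same class. The Tll2 exon region 92.2 kb from the Dntt start was 11.1 high at DN and 6.41 at DP. The DN-only regions 58.6 kb upstream, in a Blnk intron, and 72.4 kb downstream, in a Tll2 intron, were 7.41 and 17.7 high. The promoter of Blnk, the gene of a B cell adaptor protein, was 17.4, 8.85, 11.2 and 5.58 high. The promoter of Opalin, a gene of myelinating glia, had no peak at any stage.

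**Figure D3:**
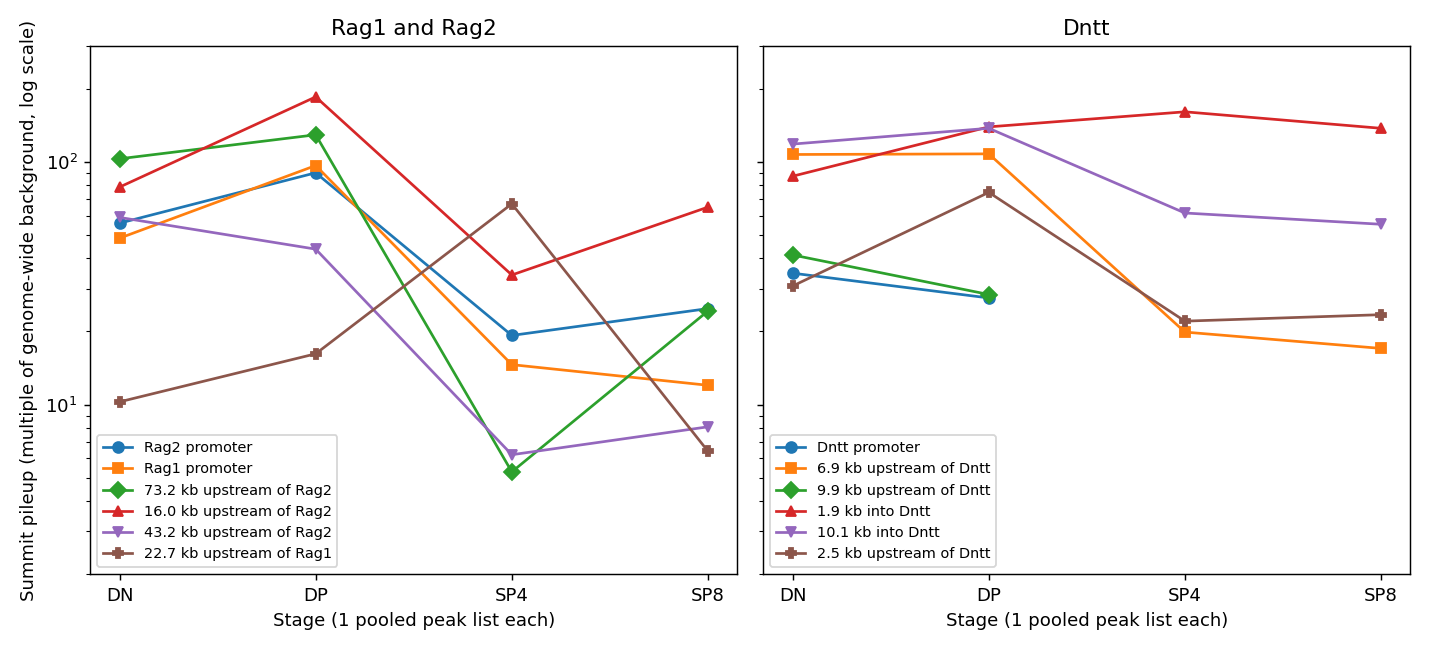
Summit heights, as multiples of the genome-wide background on a log axis, of the 3 promoters and the distal regions described in the text, at each of the 4 stages (1 pooled list each, so without error bars). Lines end where no peak was called: the Dntt promoter and the region 9.93 kb upstream of it have no point at SP4 or SP8, while the region 22.7 kb upstream of Rag1 peaks at SP4.

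The members were next grouped by the lists that held them. In the Rag1 and Rag2 window, 42 of 62 regions were called at DN and 39 at DP, with 38 at SP4 and 35 at SP8, where 75.7%, 53.9%, 58.3% and 53% of all regions were. In the Dntt window, 41 of 49 were called at DN and 39 at DP, with 25 at SP4 and 26 at SP8. The Dntt window thus had 79.6% of its regions called at DP and 51.02% at SP4, and the Rag1 and Rag2 window 62.9% and 61.3%.

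Regions called at DN and DP alone made up 9 of 49, or 18.4%, at Dntt (95% Wilson interval 9.98% to 31.4%, covering counting error only) against 5.59% of all regions. Under other settings the Dntt share ran from 13.7%, with an overlap of at least 50 bp to merge, to 19.1%, with a q-value of at most 0.001. In the Rag1 and Rag2 window such regions made up 3 of 62, or 4.84%. Among 16743 windows built alike around other protein-coding genes, many of which overlap each other, 185 had a larger DN and DP share than the Dntt window. The 9 regions were spread from 70.6 kb upstream of the start to 92.2 kb downstream, and the promoter was 1 of them.

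DP-only regions were 11.3% of the Rag regions and 8.16% of the Dntt regions, where 5.17% of all regions were, and DN-only regions were 12.9% and 14.3%, where 21.7% of all were. Regions called at all 4 stages were 24 of 62 and 21 of 49, where 34.1% of all regions were. SP4-only regions numbered 6 in the Rag1 and Rag2 window and 0 in the Dntt window, against 7.39% of all, and SP8-only regions 3 and 2, against 4.21%. SP4 and SP8 shared 2 regions at Rag and 1 at Dntt that neither DN nor DP had, against 3.82%. The 95% Wilson interval held the share over all regions for all but 3 of these window shares, which were the DN and DP share and the SP4-only share at Dntt and the DP-only share at Rag (5.58% to 21.5%). The last 2 missed it narrowly, with an upper bound of 7.27% against 7.39% and a lower bound of 5.58% against 5.17%. Of the 3, only the DN and DP share was recomputed under other settings.

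**Figure D4:**
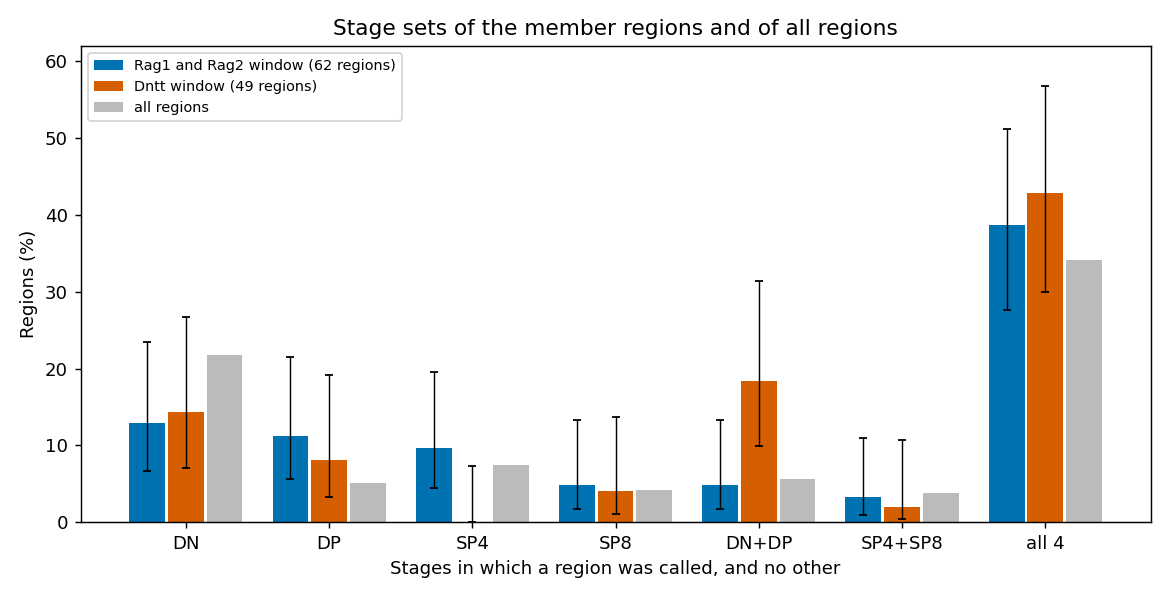
Share of regions (per cent, vertical axis) called at the stages named on the horizontal axis and at no other, for the Rag1 and Rag2 window (62 regions), the Dntt window (49 regions) and all 185978 regions. Error bars are 95% Wilson intervals for counting error, and the DN and DP bar of the Dntt window, 18.4%, stands above the 5.59% of all regions.

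Heights were compared next, as the ratio of 2 stages at regions called at both. Of 27 Rag regions called at both DP and SP4, 8 were at least 2 times taller at DP, where 8.41% of all such regions were, and 2 were at least 2 times taller at SP4, where 13% of all were. Between DP and SP8, 12 of 27 were at least 2 times taller at DP, where 9.17% of all were, and 1 was taller at SP8 by that factor, where 12.3% were. At Dntt, 4 of 24 regions were at least 2 times taller at DP than at SP4 and 6 of 23 than at SP8, and none was at least 2 times taller at either SP stage. The median DP to SP8 ratio was 1.78 in the Rag1 and Rag2 window, 1.21 in the Dntt window and 0.906 over all regions.

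From DN to DP, 5 of 30 Rag regions and 3 of 34 Dntt regions were at least 2 times taller at DP, where 3.88% of all regions were. In the other direction 1 region in each window was at least 2 times taller at DN, where 16.5% of all were. Among regions called at all 4 stages, DP was the tallest stage in 12 of 24 at Rag and 8 of 21 at Dntt, against 17.3% of all. Between DN and the SP stages, 7 of 28 Rag regions were at least 2 times taller at DN than at SP4, where 15.6% of all were, and 8 of 29 than at SP8, where 16% were. At Dntt these were 2 of 23 and 6 of 23. At least 2 times taller at SP4 than at DN were 3 Rag regions and no Dntt region, where 9.69% of all were, and no region of either window was so at SP8, where 9.43% were. Between the SP stages, 4 of 29 Rag regions and 1 of 22 Dntt regions were at least 2 times taller at SP4, where 7.06% of all were, and 1 and 0 were at SP8, where 4.71% were. These ratios share lists and are not independent of each other.

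Summed over the regions of the Rag1 and Rag2 window, counting the tallest peak of each region, height was 843 at DN and 1146 at DP, with 605 at SP4 and 489 at SP8. DP was 1.90 times SP4 and 2.34 times SP8, where the sums over all peaks gave 0.909 and 0.923. A region not called at a stage adds 0 to its sum, and over the 24 regions called at all 4 stages the ratios were 1.82 and 2.19. Without the 3 tallest regions they were 1.34 and 1.89. The Dntt sums were 964, 1041, 655 and 660, with DP at 1.59 times SP4 and 1.58 times SP8, and 1.59 and 1.46 times without the 3 tallest. Over the 21 Dntt regions called at all 4 stages they were 1.34 and 1.41.

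**Figure D5:**
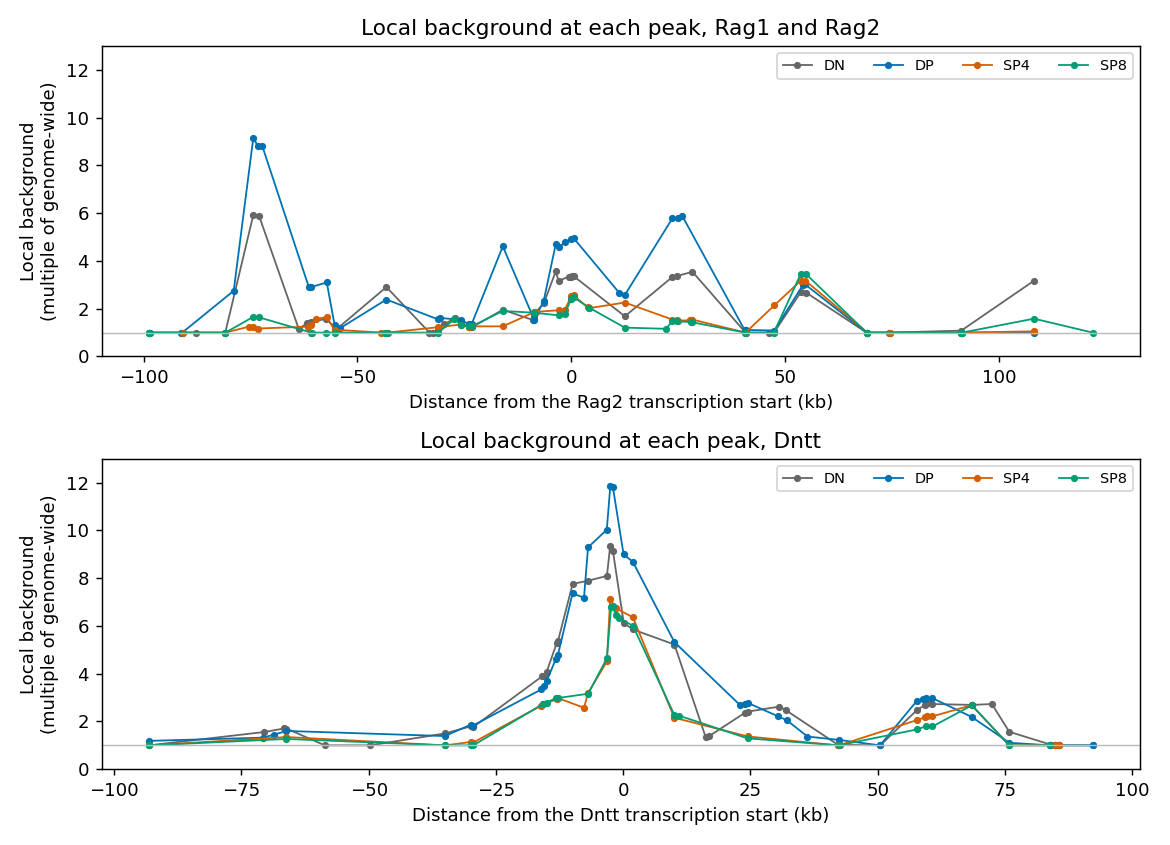
Local background at each peak, the mean coverage of the surrounding 10 kb as a multiple of the genome-wide background, against distance from the Rag2 start (top) and the Dntt start (bottom) in kb, with 1 line per stage. The DN and DP lines rise to 5.92 and 9.14 74.3 kb upstream of Rag2, where SP4 and SP8 are at 1.21 and 1.66, while at the Dntt start all 4 lines rise, to between 6.83 and 11.9.

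The local background near the Dntt start was raised at all stages. The local background peaked 2.53 kb upstream of the start at 9.35 at DN, 11.9 at DP and 7.12 at SP4, and 2.04 kb upstream at 6.83 at SP8, each above at least 93.1% of the peaks of its list. At 6.91 kb upstream it was 7.89 at DN and 9.29 at DP, and 3.19 at SP4 and 3.16 at SP8. At the Rag2 promoter the local background was 3.33, 4.91, 2.52 and 2.42, and at the Rag1 promoter 3.37, 5.80, 1.51 and 1.47. The highest local background of the Rag1 and Rag2 window at SP4 and SP8, 3.18 and 3.46, stood at the Traf6 promoter and the region next to it.

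Rag1, Rag2 and Dntt were then set beside the other genes of V(D)J recombination, most of which serve DNA repair in every cell. The list of 21 genes holds the 3 genes above. Of the 21, 21 had a promoter peak at DN and 21 at DP, with 20 at SP4 and 20 at SP8. Among all 20780 protein-coding genes, 65.7%, 61.3%, 59.6% and 59.7% had one at these stages. Dntt was the gene of the list without one at the SP stages. DP was at least 2 times taller than SP4 at 3 of the 20 genes with both peaks, where 4.41% of all protein-coding genes were, and these were Rag1, Rag2 and Xrcc6. Xrcc6, the gene of the end-binding protein Ku70, was 205 high at DN and 250 at DP, with 58.4 at SP4 and 80.1 at SP8.

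SP4 was at least 2 times taller than DP at 1 gene. This was Poll, the gene of polymerase lambda, at 14.4 against 35.7. Dclre1c, the gene of the hairpin-opening nuclease Artemis, was 177, 228, 141 and 183 high, and Prkdc, the gene of the DNA-dependent kinase that activates it, 86.6, 91.9, 107 and 107. Xrcc5 (Ku80) was 70.4, 60.5, 77.0 and 64.8 high. The ligation genes Lig4, Xrcc4, Nhej1 and Paxx were 53.4, 106, 55.9 and 112 high at DP and 50.6, 122, 65.9 and 127 at SP4, so none of the 4 differed by a factor of 2.

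Polm, of the polymerase family that holds Dntt, was 140 high at DP and 125 at SP4. Hmgb1 and Hmgb2, DNA-bending proteins that aid the RAG recombinase, were 185 and 272 high at DP and 177 and 273 at SP4. The break-response genes Atm, Trp53bp1, Mre11a, Rad50, Nbn and H2afx ranged from 40.0 to 154 high at DP and from 50.6 to 174 at SP4. The median DP to SP4 ratio over the 20 genes was 0.884, beside 0.983 over all protein-coding genes.

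The gene windows with the stage make-up most like that of Dntt were those of Lrrc15, Cpn2 and Gucy2d, measured as the sum of absolute differences of the shares of the 15 stage sets, which were 0.130, 0.184 and 0.199. The windows of Lrrc15 and Cpn2 overlap on chromosome 16. For the Rag1 and Rag2 window they were Ppil1, Ier5l and Plekhf2, at 0.161, 0.164 and 0.171.

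Short motif letters were counted on both strands in 300 bp around the tallest summit of each of the 111 members, beside the same windows of all regions. CAGCTG was found in 26.1% of members and 23.0% of all, CAGGTG in 31.5% and 29.5%, RUNX letters in 33.3% and 35.3%, GATA letters in 13.5% and 12.7%, and TCF7/LEF1 letters in 15.3% and 12.9%. MYB letters (CNGTTA) were in 29.7% and 26.8%, ETS letters (AGGAAGT) in 14.4% and 18.1%, NF-Y letters (CCAAT) in 33.3% and 27.9%, and FOXO letters (GTAAACA) in 6.31% and 3.86%. IKZF letters (TGGGAA) were in 31.5% and 23.6%. A long core of the CTCF motif, which can hold a CAGGTG, was in 1 member, or 0.901%, and 1.02% of all.

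For each of these motifs but IKZF (23.63% to 40.7%) the 95% Wilson interval of the members held the share of all regions. The lower bound for IKZF lay just above the 23.61% of all regions, and no allowance was made for the number of motifs. E-boxes of either kind were also counted together, after these shares were seen. At least 1 was held by 51 of the 111 members, beside 45.2% of all regions, and at least 2 by 21, beside 13.6%. At least 4 were held by 1 member, beside 0.737%, and at least 3 by 8, beside 3.24%. All 8 are named here. Upstream of Rag2 they were the regions at 73.2, 72.2, 43.2 and 3.64 kb, the last with 4 E-boxes, and on the other side the region 108 kb from the Rag2 start. In the Dntt window they were the region over the Dntt start and DN-only regions 59.9 and 72.4 kb downstream of it. The 300 bp around the summit of the region over the Dntt start are centred inside the first exon. The 250 bases before that start shown above held no E-box.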

How the data were processed

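Libraries were made by ATAC-seq from the 4 sorted thymocyte stages of each of 4 mice. Per the authors' methods, reads were aligned to mm10 with BWA, stripped of duplicates with Picard, kept if of high mapping quality, properly paired and uniquely mapped, down-sampled to the median depth of the libraries and pooled by stage, and narrow peaks were called with MACS2 at 5% FDR with each Tn5 cut extended to a 100 bp fragment. The deposited lists give for each peak a score, a fold enrichment over the local background, −log10 p and q-values and a summit offset. They hold no read counts, and the read numbers per library listed by the study, unequal before the down-sampling, were not used here. The lists hold no peak on the sex chromosomes, so X-linked genes such as Cd40lg were not measured.

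Fold enrichment and −log10 p of the deposited peaks were solved for the summit pileup and the local background, taking 1 as added to both before the division. The pileup came out whole, within 0.1, for at least 99.998% of the peaks of each list. This scale was chosen after the values were seen. No test was made between stages, which have 1 pooled list each. Intervals are Wilson intervals at 95% for counting error only.

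Peaks sharing at least 1 bp were merged, promoters were the 200 bp upstream of any GENCODE M21 start of a gene, and percentiles are within a list. Named regions were those over the 3 genes' starts, the 3 of highest fold enrichment percentile per window among single-stage or DN and DP only regions, and the 3 highest distal ones. Any other is said to be chosen after its values were seen. The members, the gene lists and the motif letters were chosen with earlier results of these data known. Sequences came from RefSeq (GRCm38). Python 3.11.15, pandas 2.3.3, numpy 2.4.6, scipy 1.17.1 and matplotlib 3.10.9 were used, and the recovery and the merging were checked on simulated data. Alternatives were other windows, a stricter q-value, lists of equal length, other merging and promoter rules, percentiles by q-value or pileup and other motif windows. Some marker genes of the lists are not reported here.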

Additional observations from a re-analysis of the deposited data

How the results depend on the processing

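Of 111 values recomputed under another setting, 100 stayed within 1.5 times (counts) or within the 95% interval of the main value (shares and percentiles). The DN count of the Rag1 and Rag2 window fell from 48 to 29 peaks with lists of equal length, from the highest of the 4 stages to the lowest, and its DP count from 43 to 25 with 50 kb flanks. The percentile of the promoter peaks at DP moved with its measure: by q-value it was 94.99 for Rag2, 95.2 for Rag1 and 51.2 for Dntt, and by summit pileup, added after the data were seen, 95.1, 95.7 and 74.8, beside 91.2, 88.9 and 7.02 by fold enrichment. Requiring the summit inside the promoter left Rag1 with 2 stages of 4, and promoters of 1000 bp gave Dntt 3 stages in place of 2. In 100 bp windows the log2 ratio of member to overall motif share was 0.29 for RUNX and 0.92 for IKZF, beside −0.08 and 0.42 in 300 bp. This ratio changed sign in 100 bp windows or per kb of whole region for 5 of 11 motifs (RUNX, GATA, TCF7/LEF1, MYB and CTCF), so no direction is read for them. Leaving out 1 mouse could not be done on lists called from pooled mice. No paired analysis was possible because each stage has 1 pooled list and no test was made.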
